A study of Mus musculus with 6 samples.

Results

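The genes described here encode the CCAAT-binding factor NF-Y and 4 members of the Sp family, which bind GC-rich sites. They were the rows of the deposited expression table with the symbols Nfya, Nfyb, Nfyc, Sp1, Sp2, Sp3 and Sp4, which gave 7 of the 22081 genes in the table, 3 of NF-Y and 4 of the Sp family. NF-Y is a trimer. NF-YB and NF-YC carry histone folds and pair with each other, and NF-YA joins the pair and reads the CCAAT box. Sp factors carry zinc fingers that read the GC box. SP1, SP3 and SP4 have glutamine-rich activation domains, and contact between such a domain of SP1 and the TFIID subunit encoded by Taf4 is a textbook case of an activator reaching the basal transcription machinery. NF-Y keeps many proliferation genes active in dividing cells, and its NF-YA subunit is lost when myoblasts become myotubes.

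The series compared muscle stem cells (MuSCs, which lie beside the myofibres and repair them after injury), used directly after isolation, of Control and Taf4asKO mice by RNA-seq of total RNA, with 3 libraries per group made from 10 ng of RNA each. The mice were adult C57BL/6 animals of both sexes. According to the study's methods, Taf4asKO mice carried loxP-flanked Taf4 alleles (Taf4a in the study) and a tamoxifen-inducible Cre recombinase driven by Pax7, and received tamoxifen. The study describes its controls as littermates with the same loxP-flanked alleles, with or without the Cre allele. Its list of genotypes gives tamoxifen for Taf4asKO, and in an experiment on body weight both groups had received it. Which of these controls, and which treatment, the 3 Control libraries had is not given in the sources used here. The MuSCs of the study's expression figures were taken some weeks after tamoxifen, with no time for each library. The sort kept cells negative for SCA1, CD45 and CD31 and positive for either integrin-α7 or the Pax7-zsGreen reporter, and which of the latter was used for these libraries is not given in the sources used here. Pax7 drives the Cre, so other cells in the gate would keep Taf4.

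The values are reads per gene divided by a size factor per library, called normalized counts below. The depth estimated for each library ranged from 10.6 M to 17.6 M (mega) reads. Taf4 stood at 613, 534 and 478 normalized counts in the 3 libraries labelled Control, against 631, 565 and 574 in those labelled Taf4asKO. The groups overlapped (log2 fold change of 0.13, SE 0.12, adjusted p of 0.524 with limma). The gene value sums all exons and the deleted pair of exons was not measured apart, so Taf4 did not check the labels. The summed level of 7 MuSC markers was 33397 to 34934 in Control and 34994 to 37839 in Taf4asKO. Of these, 2 were called higher (Vcam1 and Sdc4) and 3 lower (Myf5, Itga7 and Cdh15), and Pax7, the defining marker, was not called, at 12082 to 13007 and 10363 to 11164. Markers of other cell types also differed, and the part of such cells in the results below was not tested. The study reports incomplete purity of its sorted MuSCs, with no value for each library. The summed level of 4 Schwann cell markers was 842 to 2255 in Control and 2757 to 3300 in Taf4asKO. That of 5 endothelial markers was 878 to 1263 and 1389 to 1680. The 3 immune markers in the table, out of 6 listed, summed to 435 to 548 and 680 to 921, a difference set by Lyz2. Lyz2 was at 94, 357 and 320 in Control and 465, 729 and 483 in Taf4asKO. The means of Cd68 (198 and 180) and Cd79a (38.7 and 21.3) were lower in Taf4asKO. The 6 fibro-adipogenic markers summed to 61486 to 68777 and 40401 to 50471, a difference set by Col3a1, and the other 5 to 15261 to 21077 and 27319 to 33476, of which Gsn was called higher. In limma with the replicate block, Pdgfra, Dcn and Lum were called higher as well (adjusted p of 0.00927, 0.00968 and 0.00118), so that 4 of these 5 passed, as were Cdh5 and Kdr of the endothelial, Lyz2 of the immune and Pdgfrb and Kcnj8 of the smooth muscle and pericyte markers. The sums were, for 6 myofibre markers, 1220 to 3855 and 2220 to 2770, and for 5 smooth muscle and pericyte markers, 8642 to 13631 and 13611 to 15906. Every gene in the table reached at least 4 normalized counts in some library, so no marker found in it could be at 0 in all libraries. Ptprc, Adgre1 and Cd3e were not among the genes analysed. In such bulk samples, fewer cells of a type and less RNA per cell cannot be told apart.

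The 250 bases before each transcription start listed in RefSeq were searched on both strands for CCAAT, which reads ATTGG when it lies on the other strand. The second motif searched was the GC box in its form GGGCGG, found as CCGCCC when it lies on the other strand. All 7 genes matched at least 1 start. GC boxes were found before at least 1 start of 7 genes and CCAAT before at least 1 start of 6, the exception being Nfyb, with 3 GC boxes. Over all 27025 genes with a window, 35.4% held a GC box and 37.5% CCAAT before at least 1 start. A gene with more listed starts has more chances in such a count, and the 27025 genes were not limited to those tested below. Of the 14 windows of the 7 genes, some of which overlap, 7 held CCAAT, 9 a GC box and 4 both. Among all 32851 windows of the same length, 33.8% held CCAAT, 32.7% a GC box and 11.01% both. The windows of 3 Sp genes are printed because these genes hold both motifs before the same start and differ in their values below, Sp3 higher, Sp2 lower and Sp1 overlapping between the groups. The sequences are from RefSeq on build GRCm38.p6 (mm10), 5′ to 3′ along the gene, each the longest stretch of its window that GENCODE M21 does not annotate as exon, with CCAAT and GC box letters on either strand in capitals. The stretch of Sp1 is chr15:102406184-102406315 on the plus strand, that of Sp2 is chr11:96977712-96977938 and that of Sp3 is chr2:72980447-72980696, both on the minus strand.
Sp1: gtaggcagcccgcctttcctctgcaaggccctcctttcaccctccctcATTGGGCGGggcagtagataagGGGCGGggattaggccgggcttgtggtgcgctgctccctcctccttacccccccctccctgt
Sp2: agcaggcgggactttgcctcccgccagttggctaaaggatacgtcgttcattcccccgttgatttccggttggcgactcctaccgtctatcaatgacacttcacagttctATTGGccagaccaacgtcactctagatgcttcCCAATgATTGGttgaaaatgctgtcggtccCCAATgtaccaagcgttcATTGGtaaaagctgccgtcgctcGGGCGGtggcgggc
Sp3: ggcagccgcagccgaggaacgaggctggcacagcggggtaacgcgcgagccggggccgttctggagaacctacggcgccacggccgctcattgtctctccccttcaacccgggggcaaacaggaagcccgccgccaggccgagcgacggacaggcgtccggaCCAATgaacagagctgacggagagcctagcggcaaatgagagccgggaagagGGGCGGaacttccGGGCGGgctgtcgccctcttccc

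The stretch of Sp2 lies inside the gene, before the second of its 3 listed starts. Its full window of 250 bases held 6 CCAAT, the last of them inside an annotated exon and not printed, and 1 GC box. Windows with 5 or more CCAAT made up 0.213% of all windows. The windows of the other Sp2 starts held neither motif. The full window of Sp1 held 3 CCAAT and 4 GC boxes. Of those not printed, the CCAAT at -137 lies inside an annotated exon of 41 bases, and the CCAAT at -230 and the GC boxes at -210 and -197 lie upstream of it, outside any annotated exon. In the printed stretch the ATTGG at -84 shares letters with the GC box at -81. The first start of Sp3 had 1 CCAAT at -88 and GC boxes at -36 and -23, and its second start had 5 GC boxes and no CCAAT. Sp4, whose window is not printed, had 1 CCAAT and 4 GC boxes. Of the NF-Y genes, Nfya had 1 GC box, inside an annotated exon of Nfya, which the overlapping windows of its first 2 starts share, and 1 CCAAT before the third. Nfyc had 1 GC box before the first of its 3 starts, 4 CCAAT before the second and 2 before the third. The first window of Nfya also covered part of an exon of Oard1 on the opposite strand. Which start the MuSCs used cannot be read from values per gene.

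**Figure D1:**
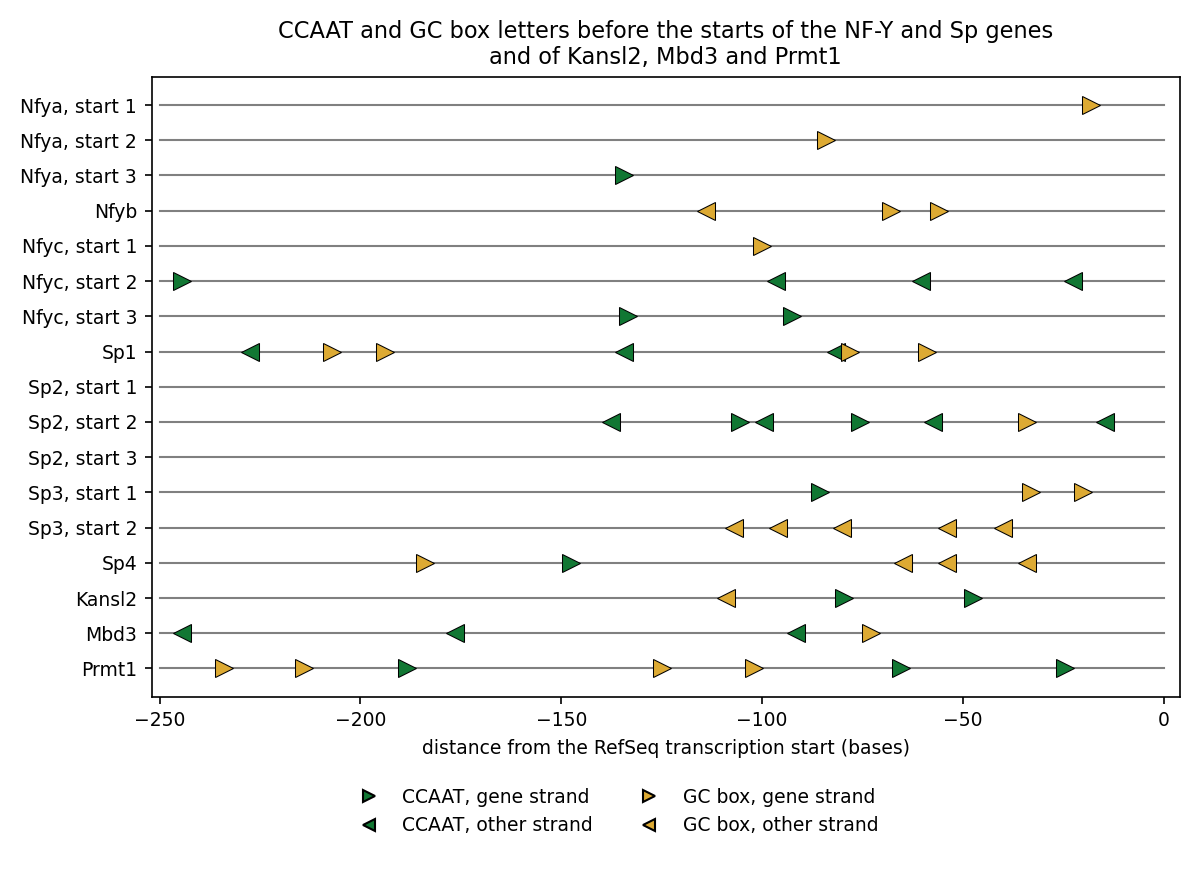
CCAAT (green) and GC box letters (orange) in the 250 bases before each RefSeq start of the NF-Y and Sp genes and of Kansl2, Mbd3 and Prmt1, with the distance from the start in bases on the x axis and arrowheads pointing along the strand that holds the letters. The second start of Sp2 holds 6 CCAAT and 1 GC box, and its other starts hold none.

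To determine whether NF-Y and Sp transcripts differed between the groups, each gene was tested with limma on log2(value + 1) in a fit over the 18562 genes whose mean value was 5 or more, and called at an adjusted p under 0.05 and a fold of at least 1.3. Of the 7 genes, 1 was called, Sp3, which rose. The call rate over all genes was 12.6%, with 6.71% lower and 5.93% higher. In 4 of the 7 genes the groups did not overlap, Nfya and Sp3 higher and Nfyc and Sp2 lower in Taf4asKO, while 33% of all genes had groups without overlap. The median log2 fold change was -0.04 over the 7 genes and 0.0040 over all genes. The study describes its replicates as biological, and the labels do not say whether the libraries of a group came from separate animals. The p-values measure the spread between these libraries.

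Nfya, the gene of the subunit that reads CCAAT, is on the minus strand (chr17:48386885-48409906, ENSMUSG00000023994). Its normalized counts were 612, 574 and 592 in Control and 784, 773 and 701 in Taf4asKO. Every Taf4asKO library lay above every Control library, with 89 normalized counts between the groups. The means were 592.7 ± 19.0 (SD, n = 3) and 752.7 ± 45.1, a log2 fold change of 0.34 (SE 0.10, 95% confidence interval 0.12 to 0.57). With an adjusted p of 0.0495 in limma, Nfya was past the limit on p and short of the 1.3-fold limit, so it was not called. Without a fold limit, which 13.1% of all genes passed, it would be the second gene called beside Sp3. Over the alternative fits its adjusted p ranged from 0.0341 to 0.193.

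Nfyb and Nfyc encode the histone-fold partners. Nfyb (chr10:82748701-82764144, minus strand, ENSMUSG00000020248) showed normalized counts of 487, 426 and 440 in Control and 499, 423 and 396 in Taf4asKO. Its groups overlapped, with a log2 fold change of -0.04 (SE 0.12, interval -0.32 to 0.23, adjusted p of 0.862 with limma). Nfyc (chr4:120757438-120831572, minus strand, ENSMUSG00000032897) showed normalized counts of 263, 313 and 275 in Control and 240, 251 and 205 in Taf4asKO. All Taf4asKO libraries were below all Control libraries by a gap of 12 normalized counts. The log2 fold change of Nfyc was -0.29 (SE 0.14, interval -0.60 to 0.015) and did not pass (adjusted p of 0.194 with limma). Nfyc had the fewest reads of the 7 genes, an estimated 226 to 290 per library. Counting alone gives a coefficient of variation of 6.66% at 226 reads, and the libraries varied by 9.20% in Control and 10.4% in Taf4asKO. Mir30c-1 and Mir30e lie within Nfyc on the same strand and share 0 bases with its exons.

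**Figure D2:**
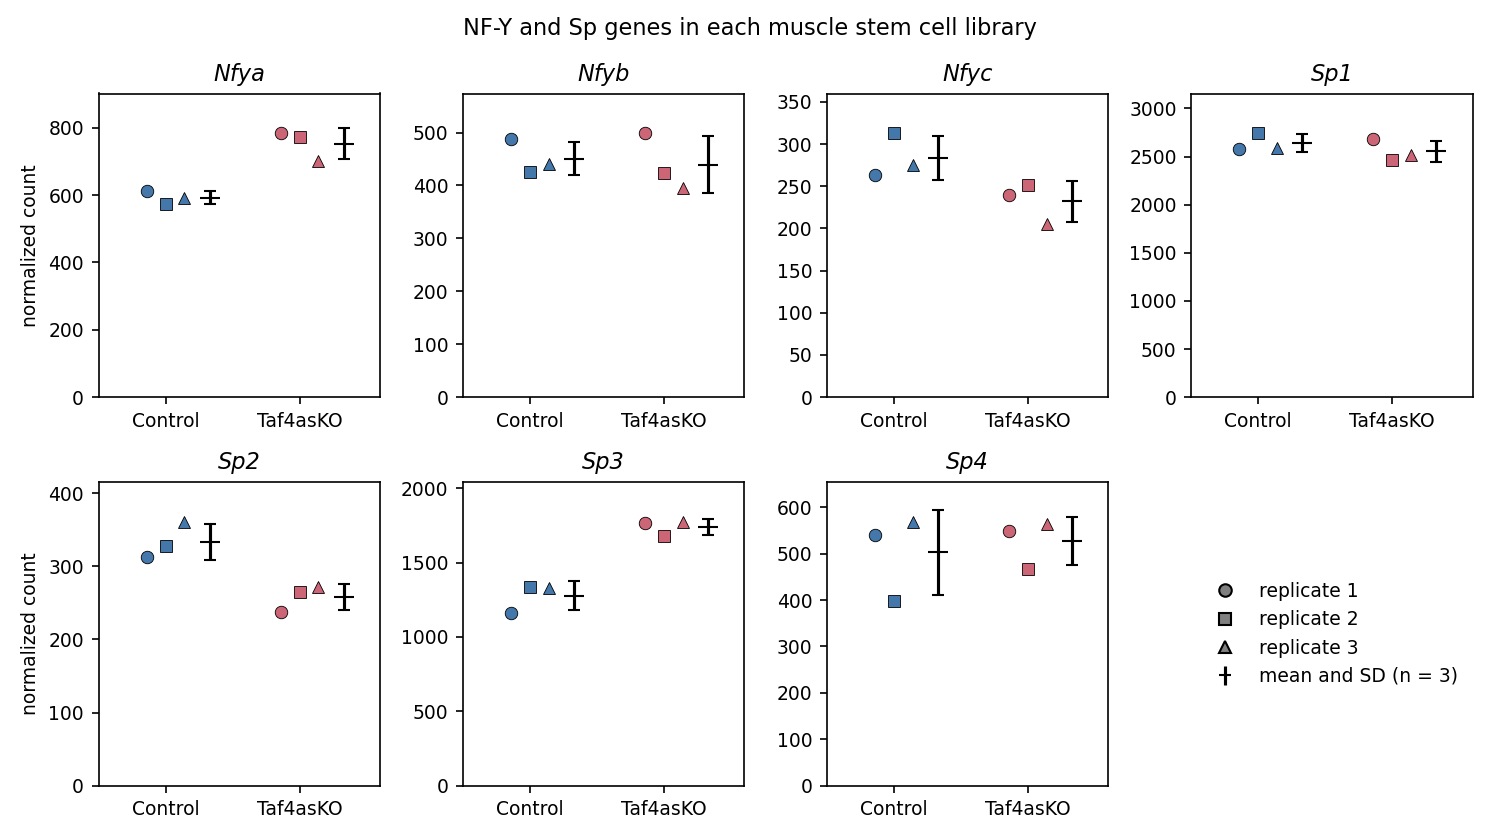
Normalized counts (y axis, from 0, 1 scale per gene) of the 7 genes in Control (blue) and Taf4asKO (red) libraries, with mean and SD of 3 libraries at the right of each group. Nfya and Sp3 sit higher and Nfyc and Sp2 lower in every Taf4asKO library, and Nfyb, Sp1 and Sp4 overlap.

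Sp3 codes for a factor that competes with SP1 for the same sites and can activate or repress. It is on the minus strand (chr2:72936427-72980446, ENSMUSG00000027109) with normalized counts of 1164, 1336 and 1332 in Control and 1768, 1680 and 1775 in Taf4asKO. The lowest Taf4asKO library was 344 normalized counts above the highest Control library. The means were 1277 ± 98.2 (SD, n = 3) and 1741 ± 52.9. Sp3 rose by a log2 fold change of 0.45 (SE 0.096, 95% confidence interval 0.24 to 0.66, adjusted p of 0.0142 with limma), a ratio of the means of 1.36. Leaving out any 1 Taf4asKO library ended the call. The log2 fold change was then 0.44, 0.47 and 0.43 without Taf4asKO replicates 1, 2 and 3, with adjusted p of 0.0543, 0.0613 and 0.0763 in limma. An exon of Sp3os on the opposite strand shares 109 bases with exons of Sp3, and whether the counting used the strand is not given in the sources used here.

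Sp2 was lower in Taf4asKO without passing the test. This gene (chr11:96953341-96982959, minus strand, ENSMUSG00000018678) codes for the Sp factor that lacks the strong glutamine-rich activation of SP1 and that has been found at CCAAT sites together with NF-Y. Normalized counts of Sp2 were 313, 327 and 361 in Control and 238, 265 and 271 in Taf4asKO. No Taf4asKO library reached the lowest Control library, from which the highest was 42 normalized counts away. The means of 333.7 ± 24.7 and 258 ± 17.6 (SD, n = 3) gave a log2 fold change of -0.37 (SE 0.12, interval -0.64 to -0.095, adjusted p of 0.0781 with limma). The change was also just short of the 1.3-fold limit, which is 0.38 on the log2 scale. Its adjusted p ranged from 0.0472 to 0.213 over the alternative fits and Sp2 was not called in any of them. D030028A08Rik on the opposite strand shares 126 exon bases with Sp2.

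Sp1, the founding member of the family, and Sp4, known best from neurons, overlapped between the groups. Sp1 (chr15:102406328-102436404, plus strand, ENSMUSG00000001280) showed normalized counts of 2580, 2743 and 2584 in Control and 2678, 2467 and 2514 in Taf4asKO. The log2 fold change of -0.05 (SE 0.087) had an interval of -0.24 to 0.15, so that a change of 1.3-fold in either direction was outside it (adjusted p of 0.774 with limma). Sp4 (chr12:118234933-118301370, minus strand, ENSMUSG00000025323) showed normalized counts of 541, 399 and 569 in Control and 549, 467 and 563 in Taf4asKO. Control replicate 2 was its lowest library, and its log2 fold change of 0.08 (SE 0.15) had an interval of -0.26 to 0.41 (adjusted p of 0.780 with limma). For Nfyb the interval likewise left out a change of 1.3-fold, whereas for Sp4 it reached past the limit on the higher side and for Nfyc on the lower side.

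**Figure D3:**
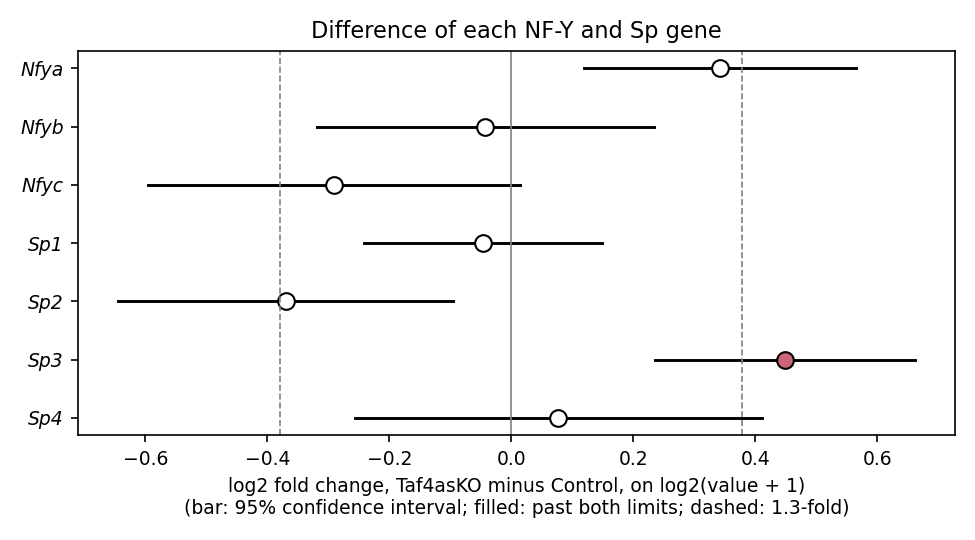
Log2 fold change of Taf4asKO over Control (x axis, on the log2(value + 1) scale) of the 7 genes, with 95% confidence intervals from limma as bars, a filled point for a gene past both limits and dashed lines at 1.3-fold. Sp3 at 0.45 is the filled point, and Nfya at 0.34 and Sp2 at -0.37 lie just inside the dashed lines.

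To compare levels between genes, normalized counts were divided by the length of each gene's merged exons. In Control, Sp1 stood first with 319 ± 11.3 (SD, n = 3) normalized counts per kb of exon and Sp3 second with 259 ± 19.9, and their libraries did not overlap. The other 5 genes lay between 81.0 for Nfya and 97.7 for Sp2, and each neighbour in that order overlapped the next. In Taf4asKO, Sp3 stood first with 353 ± 10.7 per kb and Sp1 second with 309 ± 13.4, again without overlap. Nfya stood last in Control and took the third place in Taf4asKO, with 103 ± 6.16 per kb, and Sp2 the reverse, with 75.6 ± 5.15, among genes that overlapped their neighbours. Ranked by level per kb over all libraries among 13962 protein-coding genes, Sp1 and Sp3 were at percentiles 93.1 and 92.8, and the others between 67.8 and 69.4.

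The ratios within each family put these levels side by side, as descriptions of the same values. Sp3 over Sp1 per kb was 0.756, 0.816 and 0.863 in Control and between 1.11 and 1.18 in the Taf4asKO libraries. Sp3 was thus below Sp1 per kb in every Control library and above it in every Taf4asKO library. This order depends on the exon lengths used, 8262 bases for Sp1 and 4933 for Sp3. Before division by length, Sp3 was below Sp1 in all 6 libraries, at 0.451 to 0.515 of its normalized counts in Control and 0.660 to 0.706 in Taf4asKO. The ratio was higher in Taf4asKO on both scales, since a length scales every library alike. Of the summed level of Sp1 to Sp4 per kb, Sp3 held 33.9% ± 1.59 in Control and 42.6% ± 0.259 in Taf4asKO, Sp1 41.8% ± 1.86 and 37.3% ± 1.04, and Sp2 12.8% ± 0.547 and 9.13% ± 0.797 (SD, n = 3). The share of Sp4 overlapped between the groups, at 11.4% ± 2.11 and 10.99% ± 0.756. Nfya held 30.4% ± 1.07 of the summed NF-Y level in Control and 38.4% ± 1.01 in Taf4asKO, while Nfyc held 36.2% ± 3.19 and 29.4% ± 1.496. The share of Nfyb overlapped, at 33.4% ± 2.23 and 32.3% ± 1.94. The total of the 3 NF-Y genes overlapped between the groups, at 266 ± 4.51 and 268 ± 22.4 normalized counts per kb. The total of Sp1 to Sp4 did not, at 763 ± 27.1 in Control and 829 ± 27.0 in Taf4asKO.

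**Figure D4:**
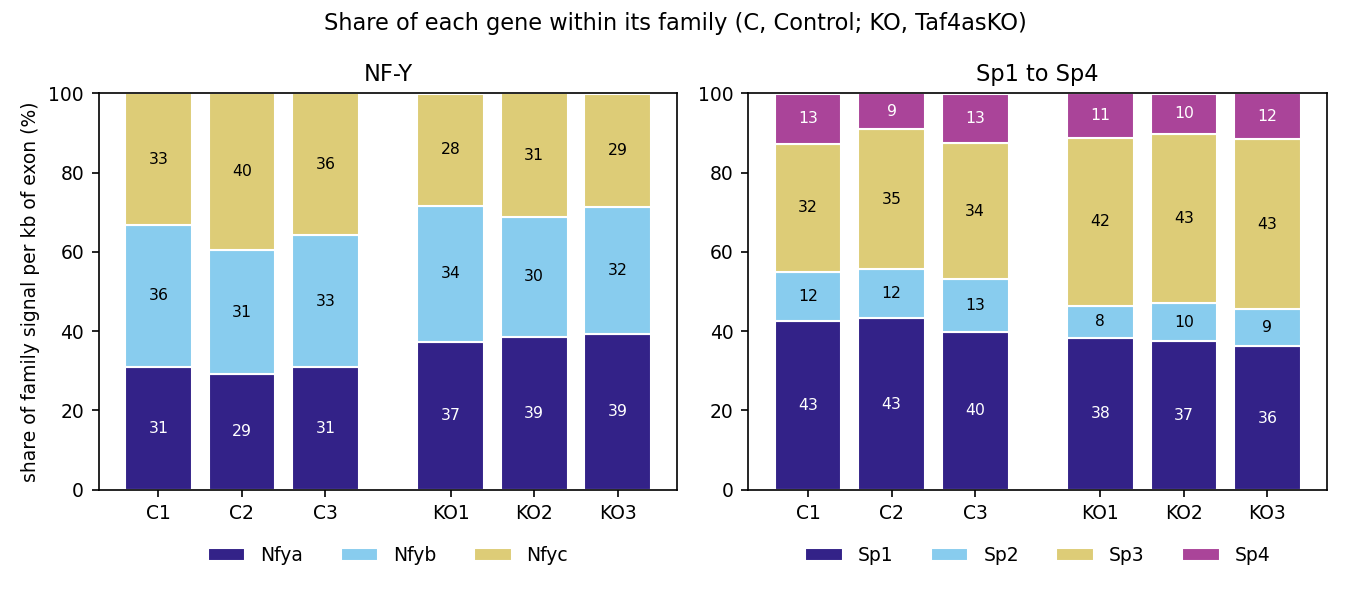
Share of each gene in the summed level per kb of exon of its family (y axis, %) in Control (C1 to C3) and Taf4asKO (KO1 to KO3) libraries, NF-Y at the left and Sp1 to Sp4 at the right. The Sp3 segment is 32 to 35% in Control and 42 to 43% in Taf4asKO, and the Nfya segment 29 to 31% and 37 to 39%.

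Other proteins with NF-Y-like histone folds, the remaining Sp genes and the Klf family, which shares the Sp zinc fingers, were read in the same fit. Among 5 histone-fold genes with a median log2 fold change of 0.16, Dr1, a subunit of the NC2 repressor of TBP, rose (log2 fold change of 0.61, adjusted p of 0.0432 with limma), and its partner Drap1 was at -0.37 (adjusted p of 0.0362), short of the fold limit. Upper-quartile scaling called both, 1 in each direction, and 0 of the list were called without Control replicate 1 or 3 or any 1 Taf4asKO library. Of the 5 other Sp genes, Sp7 and Sp9 were in the table, and Sp7, the 1 tested, was not called. Of 14 Klf genes tested, 5 rose and 1 fell, with a median log2 fold change of 0.33. Klf4, known as a reprogramming factor, rose by 1.002 (adjusted p of 0.0269) and Klf15, a glucocorticoid-induced metabolic regulator, by 0.90 (adjusted p of 0.00639), while Klf16 fell by 0.87 (adjusted p of 0.00643 with limma). The counts of called Klf genes were 3 without Control replicate 2 or 3 or Taf4asKO replicate 1 or 3, 2 without Taf4asKO replicate 2, and 2 under total-count scaling, 1 in each direction.

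Factors named for the CCAAT box include genes unrelated to NF-Y. Of 12 such genes, Cebpd and Cebpb, which encode stress-responsive C/EBP factors, rose by 1.72 (adjusted p of 0.000326) and 0.70 (adjusted p of 0.0279), and Nfic, of the nuclear factor I family, fell by 0.69 on the log2 scale (adjusted p of 0.00146 with limma). The median of this list was -0.07. Of 6 other zinc fingers that bind GC-rich sites, Maz fell by 0.56 on the log2 scale (adjusted p of 0.0116 with limma), the list median was 0.03, and 0 were called without Taf4asKO replicate 2 or 3. Of 14 cofactors of NF-Y and Sp proteins, 2 rose and 2 fell, with a median of 0.08. Ogt, which glycosylates Sp factors, rose by 0.66 (adjusted p of 0.00451), and Taf12, the histone-fold partner of TAF4, by 0.58 (adjusted p of 0.0465). Cdk2, a kinase of NF-YA, was lower by a log2 fold change of -0.92 (adjusted p of 0.00756) and Hcfc1, a bridge to chromatin enzymes, by -0.47 (adjusted p of 0.0112 with limma). Without Taf4asKO replicate 2 or 3, 2 cofactors were called. Ep300 and Crebbp, acetyltransferases used by both families, were not called, at 0.17 and -0.19, nor was Taf4b, the paralogue of Taf4, at 0.09.

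Genes that textbooks give as NF-Y or Sp targets were listed by function. Of 11 cell cycle genes with CCAAT promoters, 6 were called lower and 0 higher, with a median log2 fold change of -1.37. Cdk1, the kinase of mitotic entry, was at -2.07 (49.7 ± 16.5 normalized counts in Control and 12.7 ± 7.77 in Taf4asKO, SD, n = 3, adjusted p of 0.0252 with limma). Top2a, a topoisomerase of dividing cells, was at -1.72 (adjusted p of 0.0121 with limma). Without Taf4asKO replicate 3, 1 gene of this list was called, and 0 were higher. Of the 9 genes with a RefSeq window, 7 held CCAAT and 8 a GC box. Of 7 endoplasmic reticulum stress genes, 6 held CCAAT and 3 a GC box. Among them Ddit3 rose by 1.03 (adjusted p of 0.0167) and the chaperone gene Hspa5 was at 0.14 (adjusted p of 0.665 with limma), and the list median was 0.13. Without Taf4asKO replicate 1, 0 of the 7 were called. With the replicate number as a block, Herpud1 was called as well. Of 5 sterol and collagen genes tested, with a median of -0.15, Fdft1, a squalene synthase gene, was called, at -0.91 (adjusted p of 0.00258 with limma). The replicate block added Col1a1 and Col1a2, both higher, with 3 of the list called, and 2 were called without Control replicate 3. Of 8 genes used as examples of GC box promoters, Cdkn1a, a cell cycle inhibitor, rose by 1.54 (adjusted p of 0.00553) and Fasn, the fatty acid synthase gene, was at -0.84 (adjusted p of 0.000935 with limma). The list median was -0.0037, and of the 6 genes with a window 5 held a GC box and 3 CCAAT.

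**Figure D5:**
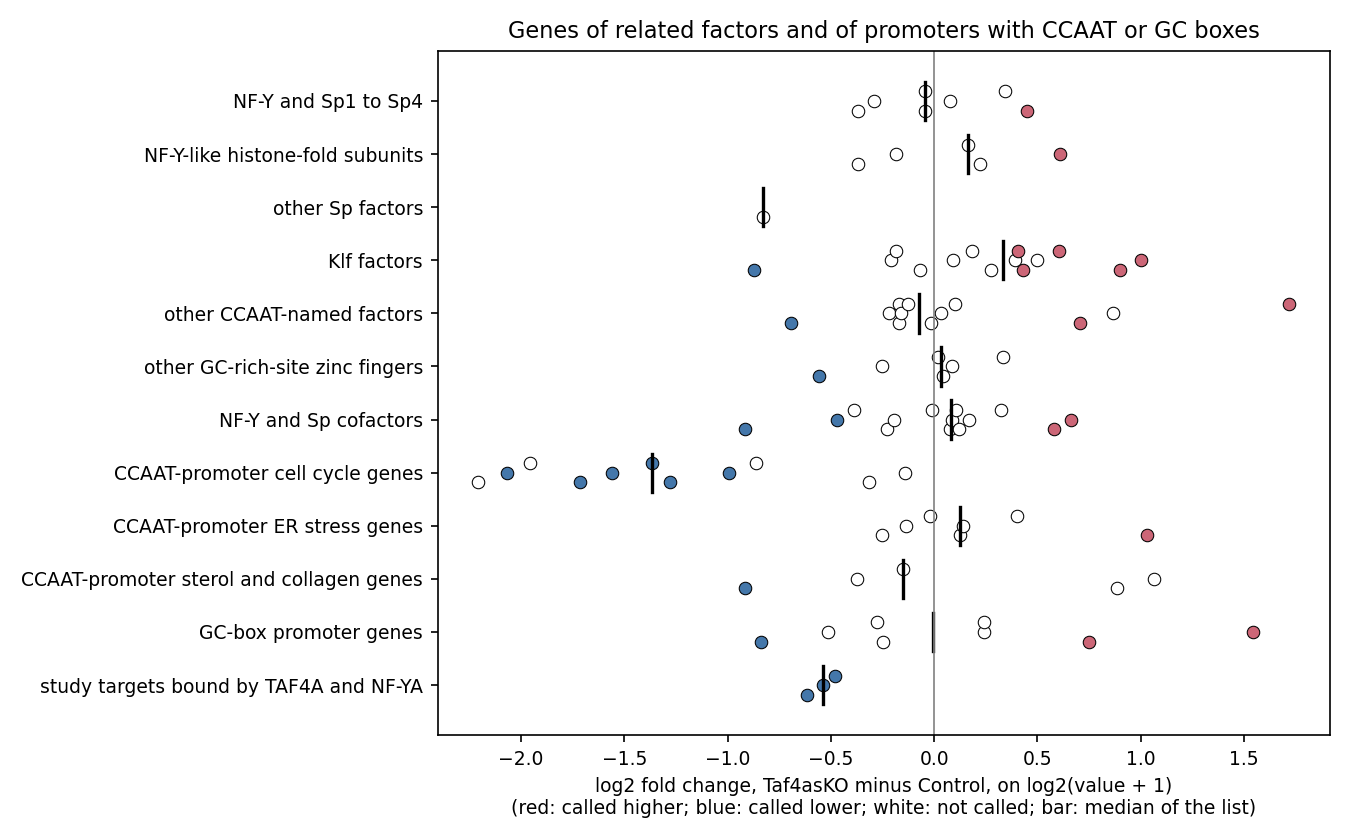
Log2 fold change of Taf4asKO over Control (x axis, on the log2(value + 1) scale) of each tested gene in 12 lists, 1 list per line, with called genes in red (higher) or blue (lower), genes not called in white and the list median as a bar. The 11 cell cycle genes all lie below 0, and the 7 NF-Y and Sp genes lie between -0.37 and 0.45.

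The study named Kansl2, Mbd3 and Prmt1 among genes bound by TAF4A and NF-YA. They were picked by the study on these libraries, so their direction is not independent evidence. Kansl2, a subunit gene of the NSL histone acetyltransferase complex, showed normalized counts of 351, 482 and 333 in Control and 260, 274 and 218 in Taf4asKO (log2 fold change of -0.62, SE 0.16, adjusted p of 0.0352 with limma). Mbd3, of the NuRD complex, had 740, 816 and 670 in Control and 512, 527 and 551 in Taf4asKO (-0.48, SE 0.11, adjusted p of 0.0188). Prmt1, an arginine methyltransferase gene, had 690, 918 and 738 in Control and 572, 517 and 516 in Taf4asKO (-0.54, SE 0.13, adjusted p of 0.0213 with limma). In none of the 3 genes did a Taf4asKO library reach the lowest Control library, and the list median was -0.54. The count of called genes was 1 without Taf4asKO replicate 1 and 0 without Taf4asKO replicate 2 or 3. Snora2b, a small RNA gene on the same strand, shares 92 exon bases with Kansl2.

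The windows of these 3 genes are printed because they hold CCAAT letters. Binding was not analysed here, and a match of letters does not show which of them NF-YA binds. Kansl2 had CCAAT at -82 and -50 and a GC box at -112. Mbd3 had CCAAT at -247, -179 and -94 and a GC box at -76, and Prmt1 had CCAAT at -191, -68 and -27 and 4 GC boxes, of which the stretch outside annotated exons keeps 1 CCAAT and 2 GC boxes. Windows with 2 or more CCAAT made up 10.1% of all windows. The stretches are chr15:98534270-98534519 for Kansl2, chr10:80399551-80399781 for Mbd3 and chr7:44986569-44986670 for Prmt1, all on the minus strand, from RefSeq on GRCm38.p6, 5′ to 3′ along the gene with motif letters in capitals.
Kansl2: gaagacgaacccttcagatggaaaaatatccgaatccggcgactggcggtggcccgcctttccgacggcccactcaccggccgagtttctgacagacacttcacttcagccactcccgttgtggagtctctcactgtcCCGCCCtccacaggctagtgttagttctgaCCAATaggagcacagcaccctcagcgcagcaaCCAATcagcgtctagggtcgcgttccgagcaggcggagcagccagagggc
Mbd3: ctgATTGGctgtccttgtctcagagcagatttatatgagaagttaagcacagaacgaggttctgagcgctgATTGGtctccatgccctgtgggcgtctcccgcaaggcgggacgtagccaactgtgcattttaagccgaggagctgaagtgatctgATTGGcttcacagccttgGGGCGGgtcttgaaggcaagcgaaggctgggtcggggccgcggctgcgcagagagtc
Prmt1: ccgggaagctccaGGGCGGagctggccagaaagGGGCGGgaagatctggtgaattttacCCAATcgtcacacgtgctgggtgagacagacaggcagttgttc

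The genes whose log2 values followed each gene most closely over the 6 libraries were taken from 10578 genes whose mean value was 50 or more. These are descriptions over few libraries, which share the group difference. For Nfya they were Picalm and C2cd3 (Pearson r of 0.993 and 0.992), for Nfyb Ncoa6 and Cry1 (0.999 and 0.993) and for Nfyc Eif3m and Naf1 (0.993 and 0.988). Sp1 was followed by Eral1 and Dnajc4 (0.989 and 0.974), Sp2 by Pgghg and Ebf4 (0.997 and 0.995), Sp3 by Sod1 (0.995) and Sp4 by Tmed1 and Ppp6r2 (0.991 and 0.977). Picalm showed normalized counts of 2078, 2033 and 2085 in Control and 2655, 2564 and 2388 in Taf4asKO, the order of libraries seen for Nfya within Taf4asKO. Ncoa6 had 1417, 1226 and 1283 in Control and 1456, 1213 and 1143 in Taf4asKO, so that replicate 1 was the highest library of both groups, as it was for Nfyb.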

How the data were processed

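RNA-seq libraries of sorted MuSCs were made with a stranded low-input total RNA kit. Per the study's methods and the submitters' processing notes, reads were trimmed with Trimmomatic 0.39, aligned to mm10 with STAR 2.6.0c and counted over exons with featureCounts 1.6.0, without reads that mapped to several places or overlapped several genes, and normalized with DESeq2 1.14.1. The deposited values are a score, since the authors scaled the counts of each library with DESeq2 and the table holds them rounded to whole numbers, as the values themselves show. The scaling factors, read from the gaps between the whole numbers, gave the reads per library, and the variation computed from reads covers counting error only. Sharing of reads between opposite strands depends on a setting not given in the sources used here.

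Genes with a mean of at least 5 entered a fit with limma 3.58.1 (R 4.3.3, lmFit, eBayes with trend, two-sided, Benjamini-Hochberg) on log2(value + 1), a scale that understates changes of low genes. The fit was tested on simulated data. Groups came from the sample titles. Same-numbered libraries of the 2 groups deviated together (r of 0.235, 0.126 and 0.150), and other pairs had r between -0.149 and 0.014. The numbers may thus pair the libraries, though deviations taken from group means make some pairs negative by construction. The main fit did not use the numbers. The study describes littermate controls without linking them to the numbers, and the replicate block was an alternative fit. The others changed the scaling, the pseudocount, the filter on low values, the variance model (limma-voom, robust shrinkage, array quality weights) or the fold limit, or left out 1 library. Levels per kb used the merged exons of GENCODE M21, in which 99.8% of gene identifiers were found, 75.7% of them with the same ends as in the deposited table. The ends of Sp1 and Sp4 differed, by 185 and 70 bases at 1 end, so their lengths, and the order of genes per kb, may differ from those of the annotation the authors counted over. Motifs were searched in RefSeq windows with python 3.11.15 and pandas 2.3.3, and figures drawn with matplotlib 3.10.9. A comparison of called genes by promoter motif was not made, because windows were found for 62.2% of the genes tested, and 80% were needed.

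The 7 genes and all gene lists were chosen with earlier results of these data known. Besides them, Taf4, Kansl2, Mbd3 and Prmt1, the text names from each list all called genes if there were 4 or fewer, otherwise the 2 largest rises and 2 largest falls, and for each of the 7 genes the 2 most closely correlated genes without Gm or Rik names. Drap1, Hspa5, Ep300, Crebbp, Taf4b, Sp7, single cell type markers and genes added by the replicate block were named after their values were seen. Some genes that the rule names are not reported here.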

Additional observations from a re-analysis of the deposited data

How the results depend on the processing

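The log2 fold changes of the 7 genes and the counts of called genes were recomputed under 19 alternatives. Levels per kb, ratios, shares, marker sums and correlations were not. Nfya, Nfyc, Sp1, Sp2 and Sp3 kept their direction in all 19 alternatives. Sp3 was called in all but the fold limit of 2 (0.45) and the fits without 1 Taf4asKO library, and ranged from 0.38 to 0.48 when 1 library was left out. With no fold limit Nfya (0.34) was called beside Sp3, so 2 of the 7 genes passed. With a fold limit of 2, 0 of the 7 and 850 of all genes were called, 520 lower and 330 higher. Nfyb turned to 0.014 and 0.029 without Control replicate 1 and Taf4asKO replicate 3, and ranged from -0.14 to 0.029 over the libraries left out. Sp4 turned to -0.036 with array quality weights and to -0.081 without Control replicate 2, and ranged from -0.081 to 0.17. The cause was not tested. Leaving out 1 library gave 0 or 1 called among the 7 genes and 960 to 3121 among all, 595 to 1505 lower and 341 to 1616 higher. The count of genes called higher was 1688 with the replicate block and 1690 with array quality weights, against 1101. With the replicate block Sp3 stayed called (adjusted p of 0.00717 with limma), Nfya and Sp2 were not called (0.0347 and 0.0515), and no call of the 7 genes changed. Among the list genes called with it were also Klf2, Kat2a, Ccnb1 and Cdc25c. The 2 alternatives for promoter motif classes were not run, since that comparison was not made, and the other Sp genes gave no count with a mean of at least 50, where 0 were left. Depth limits Nfyc most, as the gene with the fewest estimated reads.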
